A study of Mus musculus with 12 samples.

Results

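The vomeronasal type 1 receptor genes (symbols that start with Vmn1r) were followed through an H3K9me3 comparison of knockout (KO) and wild-type (WT) mouse neural progenitors. The members are all rows of the authors' deposited table whose gene symbol starts with Vmn1r and which lie on chromosomes 1 to 19. They came to 87 of 50654 listed regions, carried 57 symbols and lay on 6 chromosomes, and 0 rows with such a symbol lay elsewhere. All 57 symbols were found in the RefSeq annotation of the same genome build (mm10, GRCm38). In all, that annotation holds 372 Vmn1r genes on chromosomes 1 to 19, of which 231 are coding and 141 are pseudogenes.

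The study profiled chromatin of mice whose KO concerns Setdb1, a methyltransferase that adds methyl groups to lysine 9 of histone H3. KO cells carry the genotype label Nestin-KO and WT cells the label WT, both are of the strain C57BL/6, and all were taken at age E15.5 and grown as neurosphere cultures from the ganglionic eminence. H3K9me3, a mark of silenced chromatin, was measured in 3 KO and 3 WT animals by native ChIP-seq on 100000 nuclei per library. H3K27ac, a mark of active promoters and enhancers, was measured in 3 KO and 3 WT animals in the same way. For H3K9me3 all 3 KO animals were male, against 1 male and 2 females in WT, and the first number in the titles is also partly mixed with genotype. Values cannot be split by either, since the table does not name the animal behind each, so sex and genotype cannot be told apart here. The sources used here do not say what drives the deletion beyond the word Nestin in the genotype label, nor how complete it was, and cultured spheres are a model of the progenitors and not the tissue itself.

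Type 1 vomeronasal receptors are G protein-coupled receptors with which sensory neurons of the vomeronasal organ detect pheromones and other social odours. Each such neuron expresses very few of them, signals through the G protein subunit Gnai2 and the channel Trpc2, and keeps the rest of the family silent. The genes have a coding part without introns and lie in tandem arrays of closely similar copies. In neural progenitors of the forebrain they have no known role.

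The start regions of these genes show how alike the copies are, and are given first. Of the 87 member regions, 26 overlap a promoter window of the family. RefSeq promoter windows of GRCm38.p6, from 250 bases before to 50 bases after the annotated start, were available for 51 of the 57 symbols and for 206 Vmn1r genes in all. Of the 231 coding genes, 201 have a length that is a multiple of 3 and 188 are shorter than 1 kb, so for most of them the annotated start is that of the coding part, and the promoter of the transcript may lie further upstream. The first 3 windows below lie inside regions with higher H3K9me3 in KO, and the capitals mark each CG. They lie at chr6:90036792-90037091 (minus strand), chr7:12152214-12152513 (plus strand) and chr7:20703167-20703466 (minus strand).

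Vmn1r48: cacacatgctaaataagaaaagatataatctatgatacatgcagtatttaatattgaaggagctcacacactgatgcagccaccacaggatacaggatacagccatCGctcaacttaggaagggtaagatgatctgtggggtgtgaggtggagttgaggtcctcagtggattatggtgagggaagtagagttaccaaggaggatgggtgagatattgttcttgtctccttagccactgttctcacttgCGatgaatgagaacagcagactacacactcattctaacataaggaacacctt

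Vmn1r78: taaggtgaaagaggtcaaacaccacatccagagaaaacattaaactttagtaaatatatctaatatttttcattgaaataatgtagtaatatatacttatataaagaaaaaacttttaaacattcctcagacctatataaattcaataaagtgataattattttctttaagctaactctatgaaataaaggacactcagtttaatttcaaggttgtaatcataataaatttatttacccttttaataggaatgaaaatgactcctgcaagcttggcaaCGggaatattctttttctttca

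Vmn1r111: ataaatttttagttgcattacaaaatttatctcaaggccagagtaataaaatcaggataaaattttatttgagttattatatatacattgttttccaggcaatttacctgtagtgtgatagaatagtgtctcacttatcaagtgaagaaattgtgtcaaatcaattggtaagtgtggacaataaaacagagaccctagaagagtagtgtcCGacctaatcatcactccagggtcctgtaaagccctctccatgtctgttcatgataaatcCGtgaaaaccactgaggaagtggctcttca

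The Vmn1r111 window is shared letter for letter by 6 genes, the others being Vmn1r118, Vmn1r131, Vmn1r138, Vmn1r166 and Vmn1r257. That of Vmn1r48 is identical to the window of Vmn1r47, while the closest relative of the Vmn1r78 window, Vmn1r83, has 72.9% identity. The next pair shows a near-identical copy. A region at the start of Vmn1r137 (chr7:21994337-21994636, plus strand) carries the symbol Vmn1r155 in the authors' deposited table, and the window of Vmn1r155 itself lies at chr7:22657768-22658067 (plus strand). The capitals mark the 2 bases at which the windows differ.

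Vmn1r155: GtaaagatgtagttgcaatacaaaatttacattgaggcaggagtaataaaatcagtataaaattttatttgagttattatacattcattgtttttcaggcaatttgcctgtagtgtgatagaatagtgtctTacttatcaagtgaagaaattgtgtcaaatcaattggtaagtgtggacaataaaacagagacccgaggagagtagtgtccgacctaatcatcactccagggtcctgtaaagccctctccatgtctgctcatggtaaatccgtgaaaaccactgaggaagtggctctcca

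Vmn1r137: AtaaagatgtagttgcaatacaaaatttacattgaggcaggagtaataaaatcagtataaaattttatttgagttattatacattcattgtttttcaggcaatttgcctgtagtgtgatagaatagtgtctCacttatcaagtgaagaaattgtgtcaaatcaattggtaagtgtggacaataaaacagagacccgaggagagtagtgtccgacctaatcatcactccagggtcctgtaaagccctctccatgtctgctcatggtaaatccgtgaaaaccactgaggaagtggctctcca

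Vmn1r start regions were poor in G and C. Over the 51 genes with a listed region under their symbol the median GC content was 36.3%, with a median of 2 CG per window. Over the 155 genes without such a region it was 35.7%, with a median of 1, while all 31396 promoters on chromosomes 1 to 19 had 53.0% and 7. The letters TATAAA, searched on both strands, occurred in 52.9% of the 51 windows with such a region, 38.7% of the 155 without, and 13.6% of all promoters. The letters TAATTA were found in 3.92%, 8.39% and 5.27%. A window of a gene with such a region had a median identity of 93.5% to its closest relative in the family, and one without had 84.7%. By chromosome this median was 99.3% on 7, 81.2% on 6 and 75.6% on 13, and TATAAA occurred in 49.6%, 33.3% and 27.3%. Chromosome 7 held 40 of the 57 symbols. The 155 also include windows that a member region covers under another symbol, such as that of Vmn1r111. Of the 51 windows, 25 reached 95% identity to another, and of the 155, 58 did. The sources used here do not say how reads that match several copies were placed, so the level of a single gene with near-identical copies is uncertain.

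H3K9me3 was listed as higher in KO at nearly all Vmn1r regions, in a table in which most regions were listed as lower. In the authors' deposited table, at an adjusted p of 0.05 or less, 84 of the 87 regions were higher in KO, against a background of 28.9% of all listed regions, and 3 were lower, against 71.1%. The median log2 fold change in the authors' deposited table was 0.76 over the members and -0.94 over all listed regions. On the log2(value + 1) scale of limma the members ran from -0.98 to 1.56. Of the 57 symbols, 54 had higher regions alone, 3 (Vmn1r48, Vmn1r81 and Vmn1r149) had regions of both directions, and 0 had lower regions alone. These p-values compare summed values and so leave out the spread between animals, and the table lists only regions selected on these same libraries. Median-ratio scaling of the libraries, taken over the listed regions, raised log2 fold changes by a median of 0.79. Members already listed as higher thus moved further up, so their counts in that scaling add no separate evidence. In that scaling 86 of the 87 were positive, a test on summed values called 84 higher (background 31.7%) and 0 lower (background 38.9%), and limma called 82 higher (background 27.7%) and 0 lower (background 5.97%).

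The level was next read in each of the 6 libraries. The 3 values of each genotype are numbered below in the order in which the table lists them. In KO the median over the 87 regions was 71.3, 55.8 and 65.6 normalised reads per region, and in WT it was 40.8, 34.5 and 39.1. All 3 KO medians lay above all 3 WT medians. As 84 of the 87 regions were listed as higher on these same libraries, this adds no separate evidence. In bulk chromatin, more cells with the mark and more of the mark per cell cannot be told apart. Each listed value is a whole multiple of what 1 read is worth in that library. A median member region rested on 28, 128 and 78 reads in KO and on 23, 42 and 54 reads in WT, so the first value of each genotype is the coarsest. Per kb of region the median of the group means was 46.0 normalised reads in KO and 26.7 in WT. The authors' own enrichment ratio had a median of 1.91 in KO and 0.99 in WT over the members in the authors' deposited table. Over all higher regions of that table, the authors' deposited table gave 1.89 in KO and 0.91 in WT.

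**Figure D1:**
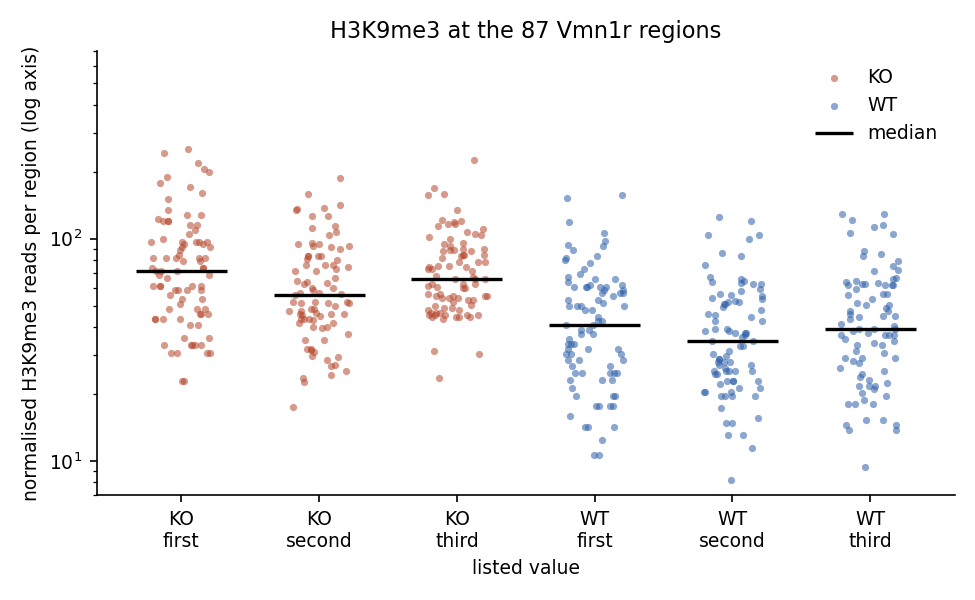
Normalised H3K9me3 reads per region (log axis) at the 87 Vmn1r regions, for each of the 3 listed KO values and each of the 3 listed WT values. Points are regions and bars are medians, which were 71.3, 55.8 and 65.6 in KO and 40.8, 34.5 and 39.1 in WT.

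With the spread between animals, few single regions passed. limma on log2(value + 1), adjusted by Benjamini-Hochberg over all listed regions, called 2 Vmn1r regions higher in KO (background 1.24%) and 0 lower (background 14.9%). At an unadjusted p of 0.05 limma held 41 members higher (background 11.5%) and 1 lower (background 48.5%). limma-voom on the whole reads called 47 higher (background 14.1%) and 2 lower (background 58.0%). The adjusted limma p of the members ran from 0.0471 to 0.299. The 3 KO values all lay above the 3 WT values at 58 regions (background 20.2%) and all lay below them at 2 (background 54.2%). Most listed regions were lower, so these backgrounds partly restate the direction. Of the 14622 listed regions higher in KO, 10227 had separate values, limma called 627 (5845 unadjusted) and limma-voom 7133. Of the 84 higher members the same counts were 58, 2 (41 unadjusted) and 47. Whether these shares differ was not tested. Of the 26 higher members in which the values overlapped, the second KO value, which comes from the library with the finest steps, did not exceed the highest WT value in 19. The limma calls depended on single libraries, for the members as for all listed regions. Without the third KO value 25 members were called higher and 1 lower, and over all 50654 listed regions 2986 higher and 30932 lower. Without any other listed value 0 members were called higher, and over all listed regions 0 to 10 were called higher and 0 lower. At an unadjusted p of 0.05, 13 to 31 members were higher in these fits. The share over all listed regions was not counted at that level, so these numbers have no background.

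Both called regions lay in the chromosome 6 array. The region over the start of Vmn1r48 (chr6:90035901-90037900, class proximal promoter) had 81.5, 71.5 and 104 normalised reads in KO, against 26.6, 32.8 and 45.0 in WT. It rose in KO by a log2 fold change of 1.29 ± 0.33 (SE; limma adjusted p = 0.0471; mean 85.7 ± 16.8 in KO and 34.8 ± 9.34 in WT, SD, n = 3 each). The lowest KO value was above the highest WT value. The region inside Vmn1r45 (chr6:89936001-89937200, class gene body) had 81.5, 34.9 and 55.5 in KO, against 17.7, 19.7 and 21.8 in WT. It rose by 1.42 ± 0.41 (SE; limma adjusted p = 0.0492), and the KO values were spread more widely than the WT values. Its centre lies 3907 bases after the annotated start, outside the promoter window.

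Vmn1r48 also held the region with the lowest fold change of the family, next to the called one. The region chr6:90034701-90036000 had 22.9, 30.9 and 23.5 normalised reads in KO, against 47.9, 50.8 and 55.8 in WT (log2 fold change -0.98 ± 0.33, SE; limma adjusted p = 0.0562; limma-voom adjusted p = 0.0153). The groups do not overlap, in the opposite direction to the neighbouring region, with which it shares 100 bases. The gene spans chr6:90035933-90036841 on the minus strand, so the direction changes close to the end of the gene. The run of 8 listed regions around it was picked after its values were seen. Beyond the gene's end, chr6:90033401-90034500 averaged 26.9 ± 3.52 in KO and 45.8 ± 6.21 in WT, and chr6:90031501-90032600 averaged 20.9 ± 7.59 in KO and 50.9 ± 3.07 in WT. Upstream of the start the next listed regions were higher in KO, the first of them (chr6:90041301-90043000) with 78.2 ± 31.7 in KO and 30.2 ± 11.6 in WT (SD, n = 3 each). The windows of Vmn1r48 and Vmn1r47 are identical, as shown above, so reads of either gene may have been placed at the other.

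**Figure D2:**
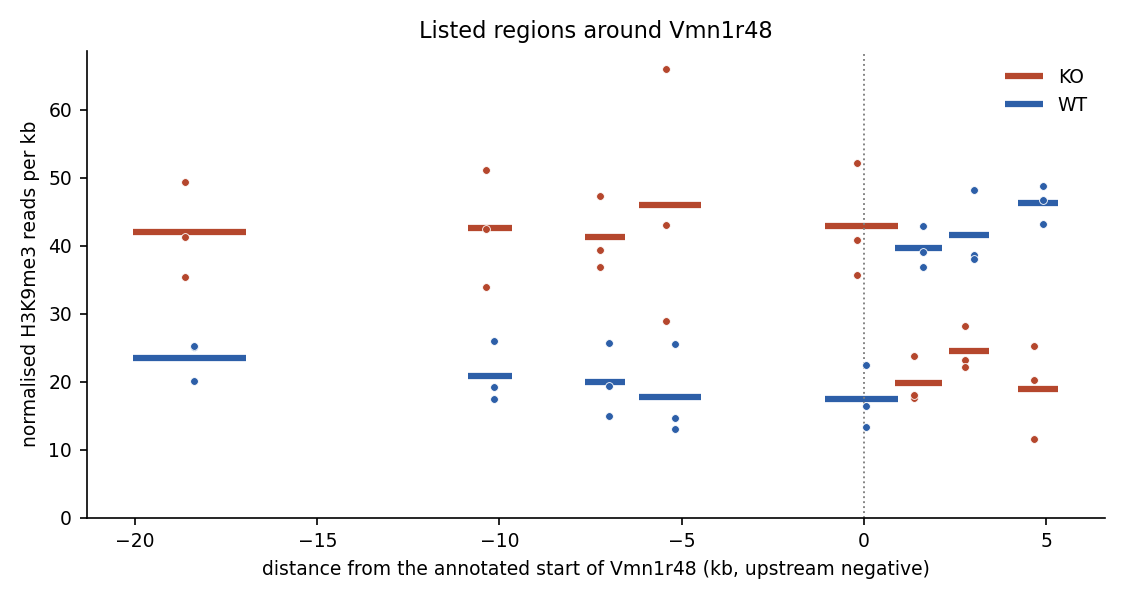
Normalised H3K9me3 reads per kb in the 8 listed regions around the annotated start of Vmn1r48, by distance from the start in kb. Bars span each region at the mean of 3 KO or 3 WT values, points are the listed values, and the 3 regions on the downstream side are lower in KO while the other 5 are higher.

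The other lower regions lay on chromosome 7. The region before the start of Vmn1r81 (chr7:12261101-12262100) had 35.7, 17.4 and 31.1 in KO, against 54.95, 45.1 and 43.5 in WT (log2 fold change -0.80 ± 0.38, SE; limma adjusted p = 0.093), and 0.01 under median-ratio scaling. The groups do not overlap there. The second region of the gene (chr7:12259501-12260500) had 30.6, 22.7 and 65.6 in KO and 30.1, 13.1 and 26.1 in WT, which overlap. A region with the symbol Vmn1r149 (chr7:20444601-20445600), at a copy that the reference calls Vmn1r101, had 22.9, 48.4 and 30.3 in KO, against 40.8, 64.8 and 56.6 in WT (log2 fold change -0.70 ± 0.38, SE; limma adjusted p = 0.118), and 0.11 under median-ratio scaling. Its values overlap.

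Joined where they lay less than 1 Mb apart, the regions formed 10 clusters, and each held a median fold change above 0. The order of the medians in the authors' deposited table ran from 0.61 for the chromosome 18 region of Vmn1r238 to 1.38 for the chromosome 6 region of Vmn1r31, each a cluster of 1 region. Chromosome 7 held 64 of the regions and 40 of the symbols.

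The chromosome 7 array at chr7:20097701-23894400 was by far the widest, with 50 regions, 29 symbols and 95 Vmn1r genes of the reference in 3800 kb. Of its 50 regions, 49 were higher in the authors' deposited table, with a median log2 fold change of 0.70. Summed over the 50 regions, which cover 83500 bases, the normalised reads came to 4970, 3740 and 4010 in KO and 2880, 2260 and 2820 in WT. Over the 37 regions outside it, which cover 53200 bases, they came to 2340, 1920 and 2540 in KO and 1230, 1330 and 1290 in WT. In both sets the KO sums lie above the WT sums, but the regions were selected on these same libraries, so this adds no separate evidence. The array had 3 of the 17 regions with a log2 fold change of 1 or more in the authors' deposited table, and the median there was 0.91 for the 37 regions outside it. The first KO value was the highest of the 3 in 37 of the 50 regions of the array, whereas the third was in 22 of the 37 others.

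Within that array the member with the most normalised reads in both genotypes was also the longest, a region of 4600 bases at chr7:20699401-20704000, which holds the Vmn1r111 window printed above and carries the symbol Vmn1r166. It had 252, 187 and 225 normalised reads in KO, against 158, 121 and 129 in WT (log2 fold change 0.70 ± 0.25, SE; limma adjusted p = 0.0608). Per kb its group means were 48.2 in KO and 29.5 in WT. The highest per kb in KO was that of Vmn1r158 (chr7:22791901-22794400), with 73.7 in KO and 51.3 in WT. In WT the highest was that of the lower region with the symbol Vmn1r149 (chr7:20444601-20445600), with 54.0, against 33.9 in KO. The symbol Vmn1r166 stood at 6 regions, more than any other, and 5 of them lay where the reference has Vmn1r111, Vmn1r131 or Vmn1r138. Their log2 fold changes on the log2(value + 1) scale were 0.63 to 1.02, all with KO values above the WT values, and 0 passed limma. The region over the start of Vmn1r137, under the symbol Vmn1r155 (chr7:21994301-21995500), had 58.6, 76.3 and 53.8 in KO, against 31.9, 27.9 and 33.4 in WT (0.98 ± 0.31, SE; limma adjusted p = 0.0529). Vmn1r176, near the end of the array (chr7:23834101-23836300), had 81.5, 90.2 and 94.1 in KO, against 49.6, 32.8 and 61.6 in WT. The groups do not overlap at either.

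Vmn1r104, Vmn1r151 and Vmn1r-ps79 had 3 regions each in the array. Those of Vmn1r104 had log2 fold changes of 0.74, 0.63 and 0.63 on the log2(value + 1) scale, with limma adjusted p of 0.0668 to 0.0775, and their KO values lay above their WT values. Those of Vmn1r151 had 0.63, 0.64 and 0.54, with overlapping values in each. The pseudogene Vmn1r-ps79 had 0.76, 0.55 and 0.57, and its values overlapped in 2 of 3. Symbols differed from the reference gene within 3 kb at 13 member regions, of which 12 were listed as higher in the authors' deposited table. Of the 74 regions where symbol and reference gave the same gene, 72 were.

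The smaller arrays of chromosome 7 were also mostly listed as higher. At chr7:5220701-6013300, 6 regions of 5 genes were all higher in the authors' deposited table (median 0.80). Among these the region in Vmn1r58 (chr7:5408401-5410900) had 96.8, 126.0 and 121 in KO, against 62.0, 76.3 and 61.6 in WT. At chr7:11669201-12262100, 6 of 7 regions were higher in the authors' deposited table (median 0.78). There Vmn1r78 (chr7:12151401-12153100), whose start window is printed above, had 50.9, 62.4 and 75.6 in KO, against 42.5, 19.7 and 14.5 in WT, a limma log2 fold change of 1.39 ± 0.44 (SE; adjusted p = 0.0529). The lowest limma-voom p of the family was at this region (adjusted p = 0.00184). Vmn1r74 (chr7:11846601-11848100) had 96.8, 43.6 and 56.3 in KO, against 23.1, 31.2 and 24.6 in WT. Both sets of values are separate, with the first KO value of Vmn1r74 well above the other two. Vmn1r185 stood alone (chr7:26613101-26614600), with 73.9, 40.1 and 74.8 in KO, against 26.6, 37.7 and 20.3 in WT.

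On chromosome 6 the array at chr6:89844301-90129200 had the highest median of the clusters with 4 or more regions, 1.24 in the authors' deposited table, with 7 of 8 regions higher. Besides Vmn1r48 and Vmn1r45, Vmn1r42 (chr6:89844301-89845900) had 56.0, 45.8 and 65.6 in KO, against 31.9, 23.0 and 18.9 in WT (1.17 ± 0.35, SE; limma adjusted p = 0.0508). Vmn1r31, which had no other member within 1 Mb, had 45.9, 24.4 and 44.5 in KO, against 14.2, 15.6 and 14.5 in WT. The groups do not overlap at either gene.

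Outside chromosomes 6 and 7 all 14 regions were higher in the authors' deposited table. On chromosome 13 the 7 regions of 6 genes had a median of 0.92 there, among them Vmn1r208 (chr13:22774801-22776500), with 40.8, 51.5 and 73.1 in KO, against 28.4, 28.7 and 30.4 in WT. On chromosome 17 the 3 regions of Vmn1r227 held the highest fold change of the family, at chr17:20732501-20733500, with 33.1, 27.03 and 44.5 in KO, against 10.6, 13.1 and 9.42 in WT. Its limma log2 fold change was 1.56 ± 0.67 (SE; adjusted p = 0.0796). On chromosome 4, Vmn1r3 (chr4:3182301-3184600) had 178, 159 and 156 in KO, against 81.5, 125 and 121 in WT, and on chromosome 18 the region of Vmn1r238 had 127, 126.0 and 117 in KO, against 83.3, 83.7 and 75.4 in WT. Each of these 4 regions has its 3 KO values above its 3 WT values, and 0 of them passed limma.

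**Figure D3:**
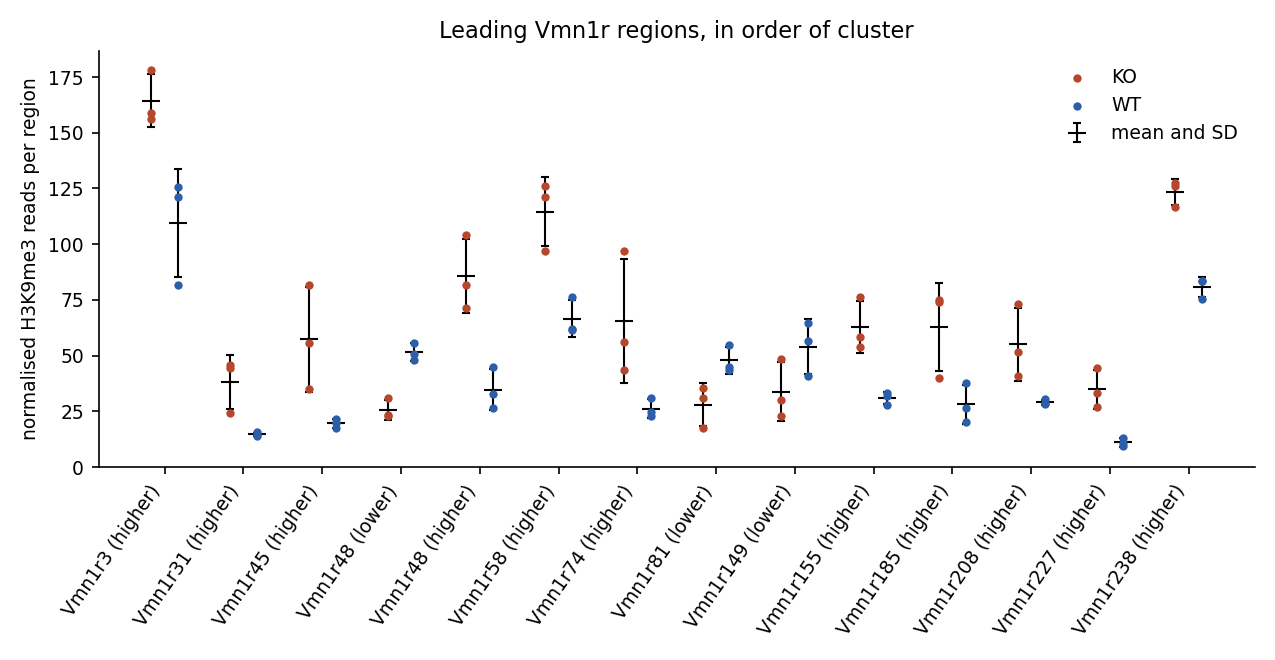
Normalised H3K9me3 reads per region in KO (left of each pair) and WT (right) at 14 Vmn1r regions: in each cluster the higher region with the lowest limma p, both called regions and the 3 lower regions, marked higher or lower in KO. Points are listed values and bars are mean and SD (n = 3), and Vmn1r48 appears with a lower and a higher region.

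Other listed regions within the spans of the arrays were mostly listed as higher as well. Within the 10 cluster spans lay 719 other listed regions, of which 615 were higher and 104 lower in the authors' deposited table, with a median log2 fold change of 0.63. Intergenic regions made up 613 of them, with 515 higher. The remaining 106 carried other symbols, with 100 higher. The most frequent were Gm6902 (30 regions), Gm4541 (13) and Nlrp5 (13), and others included Nlrp2 (8), Nlrp4e (7) and Vmn2r28 (1). Per kb, the 719 regions had a median of 49.6 normalised reads in KO and 34.3 in WT, and the members 46.0 in KO and 26.7 in WT. On chromosome 13 the neighbours were more divided, with 24 of 37 higher, while all 7 members were. Whether members and neighbours differ was not tested.

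**Figure D4:**
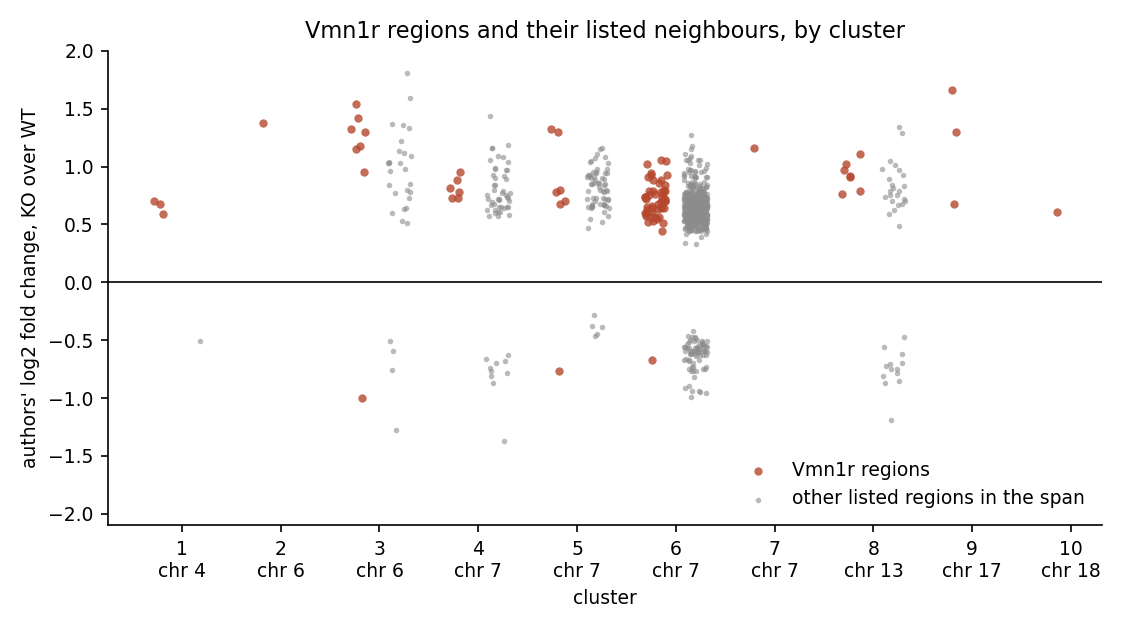
The authors' log2 fold change (KO over WT) of the Vmn1r regions and of the other listed regions in the same span, for the 10 clusters in order of chromosome. Points are regions, and 84 of 87 Vmn1r regions and 615 of 719 neighbours lie above 0.

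Higher regions lay on both sides of the gene start. The authors' classes put 8 members in the proximal promoter, 28 within 1 kb, 48 within 3 kb and 3 in the gene body, and 8, 27, 46 and 3 of these were higher in the authors' deposited table. Regions centred before the start (38) and after it (49) had median log2 fold changes of 0.76 and 0.75 in the authors' deposited table. All 26 regions that overlapped a promoter window were higher there, with a median of 0.77. Other listed regions of the 3 promoter classes were more evenly divided in the authors' deposited table, with 833 higher and 953 lower.

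**Figure D5:**
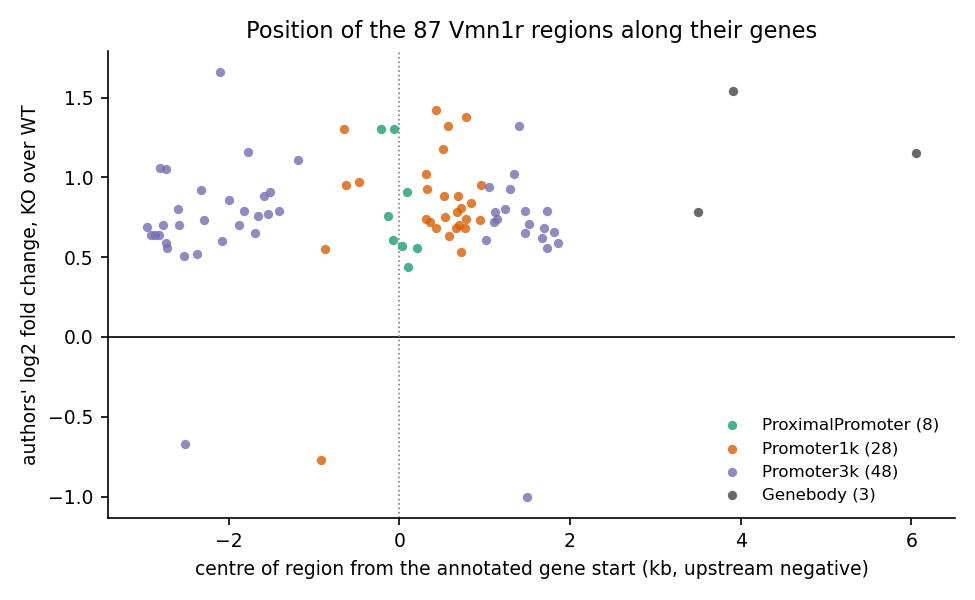
The authors' log2 fold change (KO over WT) of the 87 Vmn1r regions against the distance of their centre from the annotated gene start in kb, coloured by the authors' class with the number of regions. Fold changes above 0 occur on both sides of the start, with a median of 0.76 before and 0.75 after it.

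Many members of the family had no listed region. Of the 372 reference genes, 200 (53.8%) lay within 5 kb of any listed region, 139 of 231 coding genes (60.2%) and 61 of 141 pseudogenes (43.3%). The share was 75.0% on chromosome 7, 28.9% on chromosome 6 and 32.0% on chromosome 13. The table lists only selected regions, so the other genes could have had the mark at like levels in both genotypes, or no mark. Taking every listed region within 5 kb of a reference Vmn1r gene in place of the symbol gave 381 regions, with 357 higher and 24 lower in the authors' deposited table and a median of 0.72. Of these, 87 lay near pseudogenes alone, with 76 higher.

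H3K27ac peaks were rare over all listed H3K9me3 regions, and none lay on a Vmn1r region. In each of the 6 libraries, 0 of the 87 regions were overlapped by a peak, against 0.746% to 1.44% of all listed regions in KO and 0.592% to 0.916% in WT. At such shares a count of 0 among 87 regions does not set the family apart. Of the 372 reference genes, 1 had a peak in the gene or within 1 kb, Vmn1r4 on chromosome 6, in all 3 KO and all 3 WT libraries. This gene has no listed H3K9me3 region under its symbol. Its annotated span (chr6:56923914-56957608) overlaps the high-coordinate end of Nt5c3, a nucleotidase gene, at chr6:56923914-56924008. The peaks within Vmn1r4 start 55 to 98 bases beyond that overlap. The promoter window of Vmn1r4 lies at chr6:56956263-56956562, near the other end of its span. Within the cluster spans there were 0, 3 and 1 peaks in KO and 0, 2 and 1 in WT, nearest to Vmn1r64 or Vmn1r-ps60. The lists held 26393, 42712 and 11502 peaks in KO and 31951, 37342 and 12505 in WT, and the depth of these libraries is unknown. A gene with no peak is therefore one where none was detectable here.

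Genes that serve vomeronasal signalling and neuron maturation were listed in both directions. Of 27 genes listed, 6 had a listed H3K9me3 region, and 21 had none, among them Trpc2, Gnai2 and Omp, a marker of mature sensory neurons. Their 53 regions were 38 higher, all in the channel gene Ano2, and 15 lower in the authors' deposited table, in Gnao1, Itpr3, Ano1, Ebf1 and Bcl11b. limma called 1 of them higher (Ano2; background 1.24%) and 5 lower (background 14.9%), which is no larger a share of lower calls than over the whole table. Of the 5 regions of Bcl11b, a transcription factor of vomeronasal neurons, limma called 4 lower, as at chr12:107967201-107968700 with 22.6 ± 13.5 in KO and 69.0 ± 7.45 in WT (SD, n = 3 each; limma adjusted p = 0.0475). Gnao1, the G protein subunit of the neurons that use type 2 receptors, had 6 regions, all lower in the authors' deposited table, of which limma called 1.

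Other chemosensory families of the table were also mostly listed as higher. Of 192 Vmn2r regions (type 2 vomeronasal receptors), 163 were higher in the authors' deposited table, with a median of 0.78. Of 270 Olfr regions (olfactory receptors) 256 were higher in the authors' deposited table, with a median of 0.92. All 10 Tas2r regions (bitter taste receptors) were higher there, with a median of 1.09. limma called 4 Vmn2r regions higher and 5 lower, and 19 Olfr regions higher and 1 lower, with a background of 1.24% higher and 14.9% lower over all listed regions. Of the Tas2r regions limma called 0, with 5 higher at an unadjusted p of 0.05 and 4 called higher by limma-voom. Whether the families differ was not tested.

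The labelled cell type was checked by H3K27ac peaks within 1 kb of marker genes. Neural progenitor markers had one at 7, 7 and 5 of 8 genes in KO and 8, 7 and 3 in WT. Ganglionic eminence markers had one at 1, 2 and 0 of 8 in KO and 3, 3 and 1 in WT, and 5 of them (Dlx2, Dlx5, Gsx2, Nkx2-1 and Lhx6) had none in any library. Markers of vomeronasal and olfactory sensory neurons had one at 4, 3 and 1 of 6 in KO and 2, 3 and 1 in WT, with Omp at none and Trpc2 in KO replicate 1 alone. Cortical excitatory markers had 0 of 4 in each library. Markers of microglia and blood had 0, 2 and 0 of 5 in KO and 2, 1 and 0 in WT, of vessels 1, 2 and 1 of 4 in KO and 1, 2 and 2 in WT, and of fibroblasts 1, 0 and 0 of 3 in KO and 0, 1 and 0 in WT. Setdb1 itself overlapped 0 listed H3K9me3 regions and had an H3K27ac peak in 3 KO and 2 WT libraries, which does not check the genotype.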

How the data were processed

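Native ChIP-seq libraries came from separate animals, 3 per genotype and mark, per the series design. Per the submitters' processing notes, the build was mm10 and the tools included Bowtie2 (version 2.3.4.3) and MACS2. The sources used here do not name the tool of the H3K9me3 comparison or say how reads that match several copies were placed. The deposited H3K9me3 table holds selected regions built from windows of 1000 bases, with normalised values per library joined for each genotype. Per the file headers, the group means are a normalised signal made by the authors. Per the file headers too, the enrichment is a ratio, the fold change is log2 of KO over WT, and each region has a p-value and an adjusted p-value. The deposited H3K27ac peak lists, 1 per library, give a score, a fold enrichment (ratio) and -log10 p and q values.

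A G-test on summed values matched the authors' p to within 0.00674 (log10) over 38105 regions. Low values were whole multiples of the worth of 1 read in 100% of cases (tolerance 0.1 reads). In KO the listed regions took 11.0, 36.4 and 13.7 M reads, and in WT 15.9, 19.6 and 28.4 M (M for mega). The main test was limma (version 3.58.1, R 4.3.3) over all 50654 regions, two-sided and with a trend, on log2(value + 1), which makes fold changes of low regions smaller. It was tested on simulated data. limma-voom was run on whole reads. Because these libraries also chose the regions, no adjusted p is independent of that choice. Values are means ± SD, and fold changes are given with their SE.

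Members and lists were chosen with earlier results of these data known. The rule for regions named with values took the limma calls, the 3 higher and 3 lower regions of lowest p in each cluster, symbols with 3 or more regions or both directions, and those of highest mean. It gave 43 regions of 25 symbols, of which the clearest are given in full. The run around Vmn1r48 was chosen after its values were seen. Alternatives covered the pseudocount, trend, filter, scaling, thresholds, membership, cluster gap, peak overlap and left-out libraries.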

Additional observations from a re-analysis of the deposited data

How the results depend on the processing

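Every Vmn1r region kept its direction under each limma and limma-voom alternative, apart from median-ratio scaling, where Vmn1r81 (chr7:12261101-12262100) went to 0.01 and Vmn1r149 (chr7:20444601-20445600) to 0.11. The number of calls depended on the setting. limma called 2 regions higher and 0 lower (627 and 7551 over all listed regions). It called 1 higher with a pseudocount of 0.5 (445 higher and 6146 lower over all listed regions). With a pseudocount of 5 it called 10 higher and 1 lower (2254 and 16857 over all listed regions). Without a trend it called 0, among the members and over all listed regions. At an adjusted p of 0.10 it called 53 higher and 2 lower among the members. The count over all listed regions was not taken at that level, so this number has no background to be set against. limma-voom called 47 higher and 2 lower (7133 and 29385 over all listed regions). Median-ratio scaling gave 82 higher and 0 lower (14041 and 3023 over all listed regions), with a median log2 fold change of -0.23 left over all listed regions. Leaving out each listed value gave 0 to 25 higher and 0 to 1 lower with limma (0 to 2986 and 0 to 30932 over all listed regions). With limma-voom, an alternative chosen after seeing the data, it gave 12 to 63 higher and 1 to 2 lower (2052 to 8743 and 7538 to 29807 over all listed regions). The counts of higher calls among members and over all listed regions thus mostly moved together. Lower calls among the members, 0 to 2, were too few to compare in this way. Leaving out regions with a mean under 10 changed 0 calls. Why the limma calls rise without the third KO value was not tested.

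In the authors' deposited comparison, 17 higher and 1 lower region had a log2 fold change of at least 1 in size, and regions within 5 kb of a reference gene gave 357 higher and 24 lower. Under median-ratio scaling the same kind of test gave 84 higher and 0 lower. An adjusted p of 0.001 gave 80 higher and 3 lower, and leaving out each listed value 79 to 84 higher and 3 lower. Leaving out regions whose symbol differs from the reference gene gave 72 higher and 2 lower. Both were chosen after seeing the data. Apart from median-ratio scaling, no share over all listed regions was counted for these settings. Only 12 of the 50654 listed regions had an authors' adjusted p above 0.05, so nearly every listed region passes that call in its own direction. The 10 clusters were the same in number with gaps of 0.5 and 2 Mb, and the 1 gene with an H3K27ac peak was the count under every overlap rule and left-out library.

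No paired analysis was possible because the table does not name the animal behind each value and the replicate numbers only follow accession order. A median member region rested on 23 to 128 reads per library, which limits the precision of single regions.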
